A study of Homo sapiens with 6 samples.

Results

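WNT signaling genes were examined in TC28a2 cells, an immortalized line of human chondrocytes, after exposure to mocetinostat, an inhibitor of class I histone deacetylases. The members were the 68 genes, of 60623 in the deposited count table, whose symbols name a WNT ligand, a Frizzled or other WNT receptor, a DKK, SFRP or other secreted antagonist, an R-spondin or LGR, a cytoplasmic effector or a TCF/LEF factor. The rule uses the symbols and no expression value, but the genes were picked with earlier results of these data known. RNA-Seq covered 6 samples, 3 treated with DMSO, the solvent control, and 3 treated with mocetinostat at 2 μM, each for 24 hours. The samples of a group were described as independent experiments. All 6 came from this line alone, so the values describe an immortalized cell in culture and not cartilage tissue.

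WNT ligands are lipid-modified secreted proteins that bind Frizzled receptors. In the canonical branch, a Frizzled and a coreceptor of the LRP5/LRP6 pair recruit Dishevelled and AXIN, the destruction complex built on APC, AXIN and GSK3B stops degrading β-catenin, and β-catenin drives transcription with the TCF/LEF factors. Other branches, used by ligands such as WNT5A through the ROR and RYK receptors, act on cell polarity and calcium without β-catenin. In cartilage both branches shape chondrocyte differentiation, and secreted antagonists such as FRZB, a Frizzled-related protein, are expressed in articular cartilage.

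Total counts were 4873426 to 11031132 in the DMSO libraries and 1619344 to 5089542 in the mocetinostat libraries, so low genes were measured less precisely after treatment. Levels are given as counts per 1000000 (CPM) of the library after TMM scaling, a per-sample factor from edgeR, and as CPM per kb of exon where genes are compared with each other. A gene was tested if it passed edgeR's filter on low counts. The words upregulated and downregulated are kept for genes that changed more than 2-fold (1 on the log2 scale) with an adjusted p below 0.05. Every adjusted p is the Benjamini-Hochberg value of the quasi-likelihood test in edgeR over the 13966 genes tested. The standard errors (SE) of log2 fold changes were derived from that test. Of 15 chondrocyte markers, 7 had at least 10 counts in every DMSO sample, 1 (CNMD) was at 0 in every sample, and their summed level was 125.5 to 148.5 CPM with DMSO and 270.5 to 311.0 CPM with mocetinostat. The summed level of 8 epithelial, endothelial and blood cell markers was 7.09 to 9.30 CPM with DMSO and 50.7 to 60.3 CPM with mocetinostat, with CD3E at 0 throughout. The 7 fibroblast markers summed to 4728.9 to 5684.6 CPM with DMSO and 4330.8 to 4723.1 CPM with mocetinostat. Most of that was COL1A1, which averaged 4508.1 and 3900.8 CPM. Of the 7, COL3A1 and PDGFRB were downregulated. COL1A2, PDGFRA and LUM were upregulated from means of 2.49, 0.878 and 1.99 CPM with DMSO. SOX9 likewise made up most of the chondrocyte sum, averaging 105.6 CPM with DMSO and 178.4 CPM with mocetinostat. The part of these marker changes in the WNT results was not tested, and in bulk RNA fewer cells of a type and less RNA per cell cannot be told apart.

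Mocetinostat changed the RNA of members in every role, and mostly upward. Of the 68 members, 44 were tested, 21 were upregulated and 3 were downregulated. Among all genes tested, 20.2% were upregulated and 8.18% were downregulated. The median log2 fold change of the 44 tested members was 0.89, against 0.00 over all genes tested. Of 20 tested members not called, 7 were higher and 6 lower at an adjusted p below 0.05 (64.3% of all genes tested, calls included). The other 7 did not pass the p threshold. Of the 9997 tested genes without a call, 1770 were higher, 3246 were lower and 4981 did not pass. The 3 mocetinostat samples lay wholly above the 3 DMSO samples for 30 tested members (33.7% of all genes tested) and wholly below for 9 (32.8%).

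Part of the upward count came from members that were low with DMSO. Of the 44 tested members, 11 did not reach the filter level in every DMSO sample and passed only through the mocetinostat samples. Such entry favors genes that are higher with mocetinostat, so the direction of these 11 is not independent of the filter. Among the 33 members that passed in the DMSO samples alone, 10 were upregulated and 3 were downregulated, where 11.7% and 9.46% of the 12047 genes of that kind were called. Their median log2 fold change was 0.43. The dot plot of all tested members shows the lowest of these genes as DMSO points at or close to 0.

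**Figure D1:**
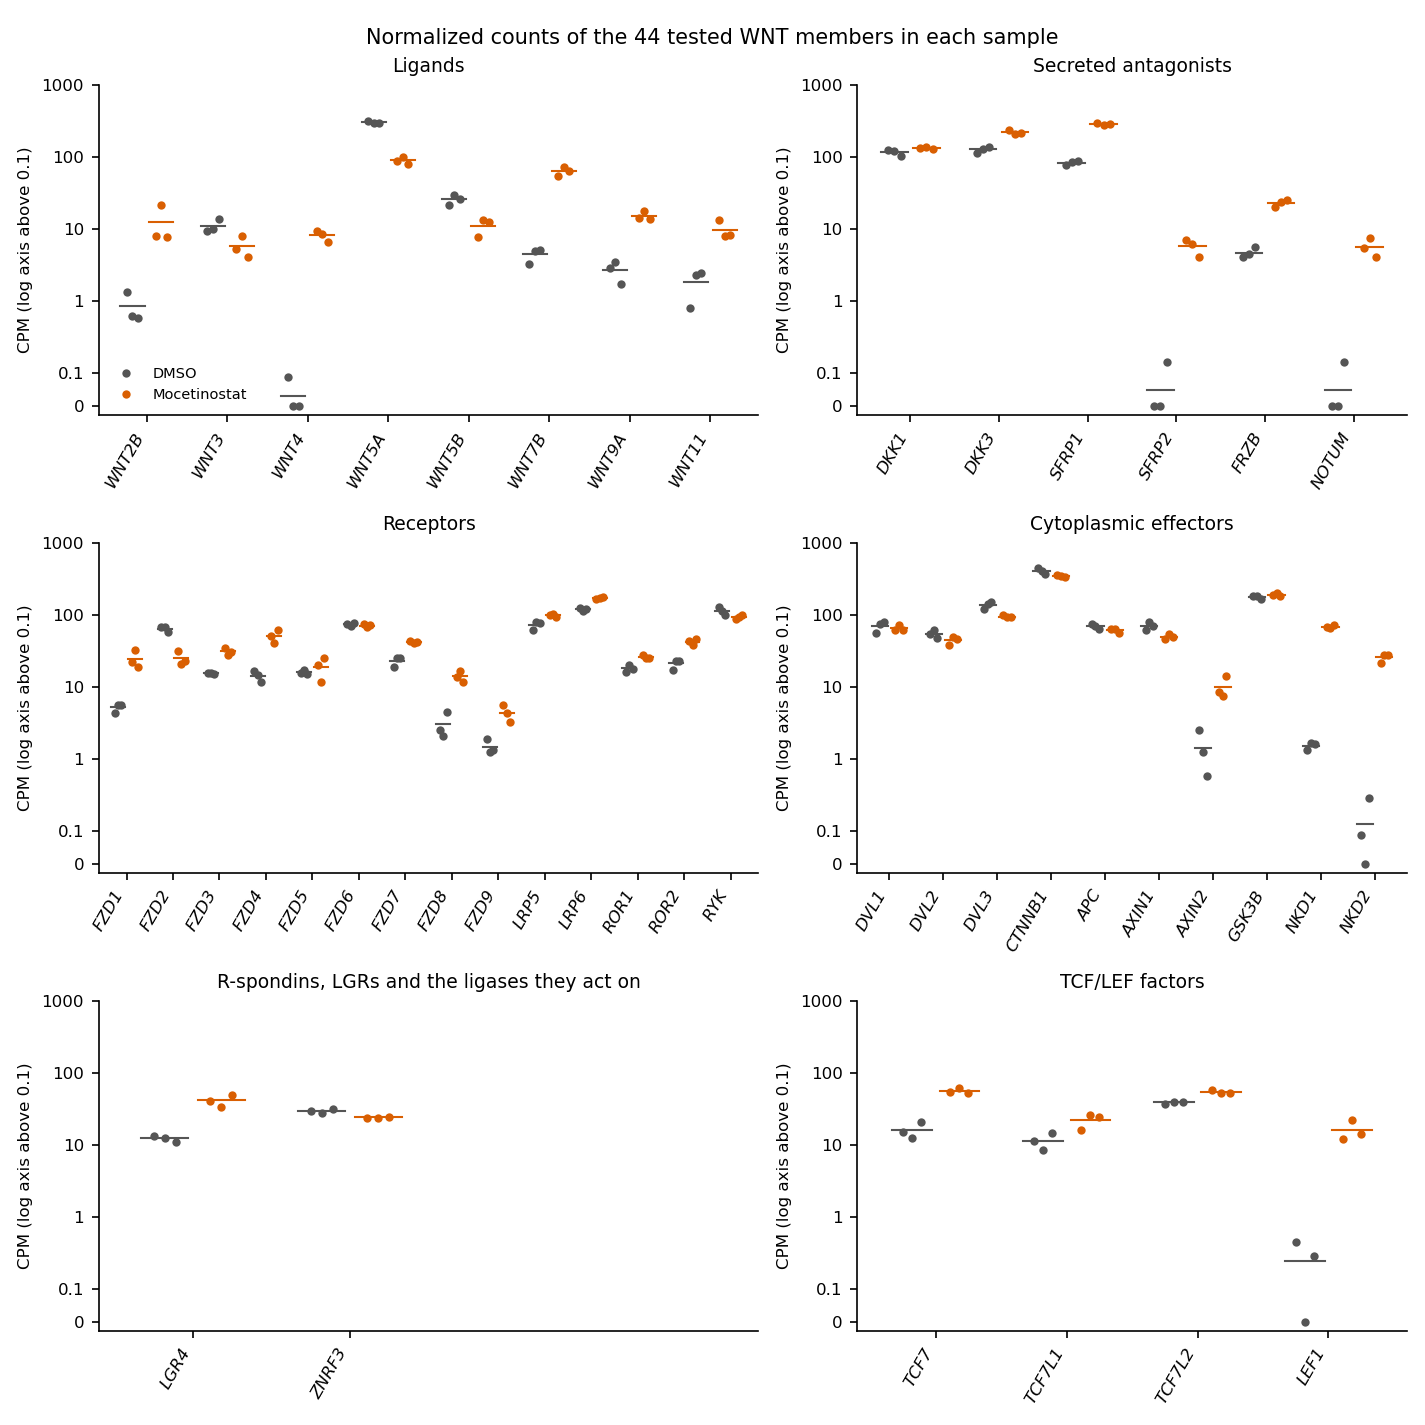
CPM of the 44 tested WNT members in each of the 6 samples, by role, with DMSO in gray and mocetinostat in orange; the y axis is logarithmic above 0.1 CPM and linear below it, each point is a sample and each bar a group mean. WNT5A sits near 300.9 CPM with DMSO and 89.0 CPM with mocetinostat, and WNT4, SFRP2, NOTUM and NKD2 rise from DMSO points at or close to 0.

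Among the 19 ligands, the RNA of the most abundant ligand fell while that of several scarce ligands rose. WNT4, WNT2B, WNT9A and WNT11 entered the test only by way of the mocetinostat samples, so their direction is not independent of the filter. In the DMSO samples alone, 4 ligands reached the filter level. Of these, WNT7B was upregulated, WNT5A and WNT5B were downregulated, and the median of the 4 log2 values was -1.15. Of all such genes, 11.7% were upregulated and 9.46% were downregulated. WNT5A, a ligand best known for β-catenin-independent signaling, lies on chromosome 3 (GRCh38, chr3:55465715-55490539, minus strand). Its level was 315.7, 295.4 and 291.5 CPM in DMSO replicates 1 to 3 and 87.1, 100.2 and 79.8 CPM in mocetinostat replicates 1 to 3. The groups were far apart, and WNT5A was downregulated 3.41-fold (log2 fold change -1.77 ± 0.09, SE; adjusted p = 2.64e-27). WNT5B, its closest paralog, was at 21.6, 29.3 and 26.0 CPM with DMSO and at 7.67, 13.5 and 12.3 CPM with mocetinostat. It was downregulated 2.45-fold (log2 -1.29 ± 0.22, adjusted p = 4.46e-07) with no overlap between groups, though the call was lost without mocetinostat replicate 1 (log2 -0.99), with all libraries thinned to the smallest (-0.97) and with scaling to GAPDH (-0.76). WNT3, a canonical ligand, was 1.0 lower on the log2 scale (adjusted p = 0.00284) and fell just short of the fold threshold. It passed that threshold without DMSO replicate 1 (-1.14), without DMSO replicate 2 (-1.08), without mocetinostat replicate 2 (-1.20), without the low-count filter (-1.25) and with DESeq2 (-1.02).

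WNT7B gained the most CPM of the 8 tested ligands. This ligand, on chromosome 22 (GRCh38, chr22:45920366-45977162, minus strand), is known from lung and kidney development. WNT7B was at 3.32, 4.96 and 5.12 CPM with DMSO and at 54.9, 72.5 and 63.7 CPM with mocetinostat. The lowest treated sample was far above the highest control, and the gene was upregulated 14.5-fold (log2 3.86 ± 0.20, adjusted p = 2.28e-28). WNT9A, a ligand with a known part in joint formation, read 2.87, 3.51 and 1.75 CPM with DMSO and 14.0, 17.8 and 13.6 CPM with mocetinostat. It was upregulated 5.50-fold without overlap (log2 2.46 ± 0.32, adjusted p = 5.64e-10).

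A further 3 ligands came up from low levels. WNT11, a ligand of the polarity branch, was at 0.808, 2.27 and 2.49 CPM with DMSO and at 13.2, 7.99 and 8.22 CPM with mocetinostat, a 5.96-fold rise (log2 2.58 ± 0.40, adjusted p = 4.55e-08). Replicate 1 was the lowest of its group with DMSO and the highest with mocetinostat. WNT2B, a canonical ligand, was at 1.35, 0.620 and 0.585 CPM with DMSO and at 7.87, 21.5 and 7.81 CPM with mocetinostat, where replicate 2 stood well above the others. The rise was 12.0-fold (log2 3.58 ± 0.46, adjusted p = 1.89e-10), and leaving out each replicate in turn moved the log2 value between 3.03 and 4.16. Its annotated exons share 21.5% of their bases with ST7L on the opposite strand, and the sources used here do not say whether reads were counted by strand. WNT4, which signals in the kidney and gonad and in cartilage maturation, had a single read in the 3 DMSO libraries together and 47, 14 and 16 reads in the mocetinostat libraries. The ratio of its counts per depth was 192.2 with a 95% exact interval of 33.5 to 7688.8 that covers counting error only (log2 6.95 ± 0.73 in the fit; 8.09 without DMSO replicate 1, the library with that read; adjusted p = 1.95e-13).

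The make-up of ligand RNA was therefore different in the treated samples. Per kb of exon, WNT5A accounted for 78.5% ± 3.42 (SD, n = 3) of all WNT ligand RNA with DMSO and for 28.7% ± 1.68 with mocetinostat, and the share of WNT7B went from 1.64% ± 0.365 to 28.9% ± 1.83. WNT7B and WNT5A thus stood level in the treated cells, at 12.5 ± 1.74 and 12.4 ± 1.45 CPM per kb. The share of WNT9A was 1.26% with DMSO and 8.68% with mocetinostat, and that of WNT11 was 1.46% and 9.71%. Summed over the 19 ligands, the level was 53.6 ± 0.221 CPM per kb with DMSO and 43.4 ± 4.30 with mocetinostat, a ratio of 0.809 that turned to 1.16 when samples were scaled to GAPDH. The ligands other than WNT5A summed to 11.5 ± 1.84 and 30.9 ± 3.10 CPM per kb, and this rise was larger with GAPDH scaling (2.68-fold against 3.84-fold). Shares do not depend on the scaling. With 3 samples against 3, an exact two-sided permutation test of a single value cannot go below p = 0.10, so no p is given for the sums.

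**Figure D2:**
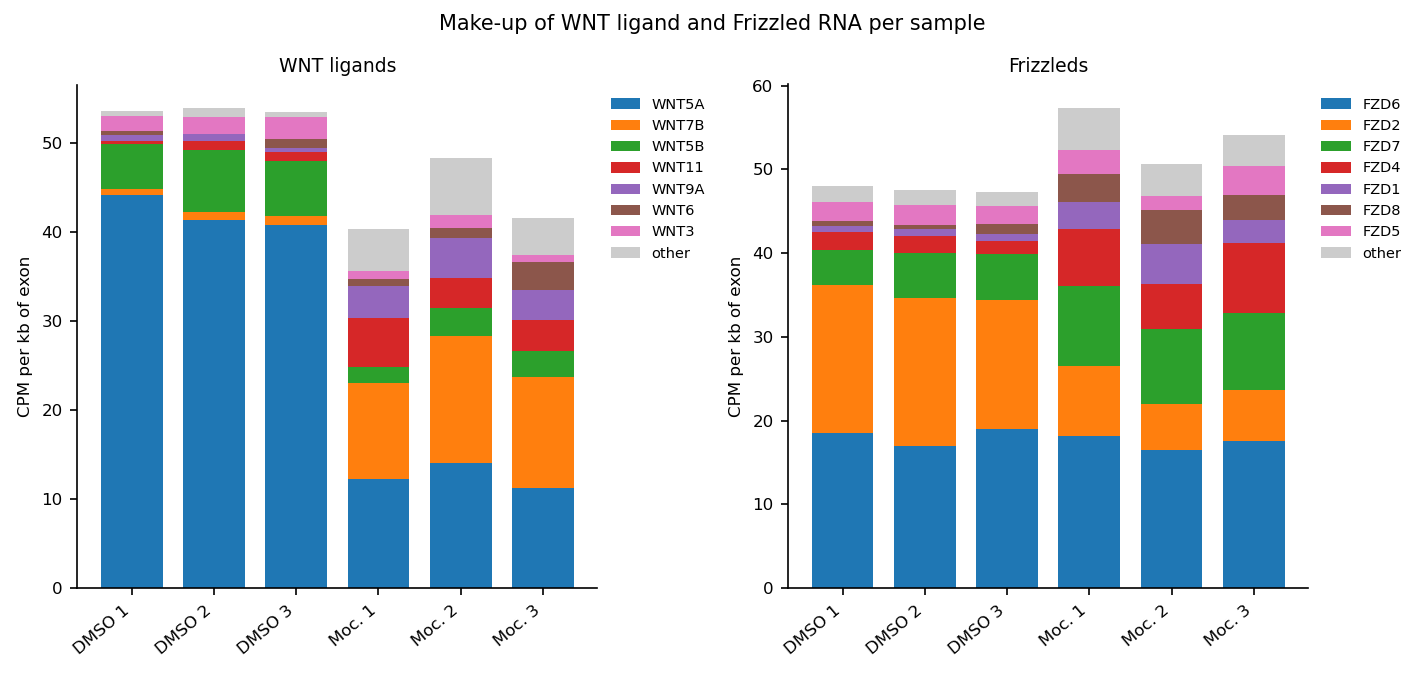
Stacked bars of CPM per kb of exon (y axis, from 0) for WNT ligands (left) and Frizzleds (right) in each of the 6 samples on the x axis, with the most abundant members colored and the remainder in gray. WNT5A fills 78.5% of the ligand bars with DMSO and 28.7% with mocetinostat, WNT7B grows to 28.9%, and FZD2 shrinks from 35.6% to 12.2% of the Frizzled bars.

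The promoters of 4 called members are printed for their CpG content. They are the 2 downregulated and the 2 upregulated members with the highest group mean CPM in either condition among those in the RefSeq promoter table used here. That table held 49 of the 68 members, and among others WNT7B, SFRP1, FZD2, NKD1, AXIN2 and NOTUM had no entry. Each sequence runs 5′ to 3′ on the gene's strand from 250 bases before to 50 bases after the most upstream listed start (GRCh38.p14), and capitals mark CpG dinucleotides, the sites of DNA methylation that cluster in CpG islands. WNT5A is at chr3:55487257-55487556 on the minus strand, WNT5B at chr12:1616806-1617105 on the plus strand, TCF7 at chr5:134115363-134115662 on the plus strand and FZD4 at chr11:86955346-86955645 on the minus strand.
WNT5A: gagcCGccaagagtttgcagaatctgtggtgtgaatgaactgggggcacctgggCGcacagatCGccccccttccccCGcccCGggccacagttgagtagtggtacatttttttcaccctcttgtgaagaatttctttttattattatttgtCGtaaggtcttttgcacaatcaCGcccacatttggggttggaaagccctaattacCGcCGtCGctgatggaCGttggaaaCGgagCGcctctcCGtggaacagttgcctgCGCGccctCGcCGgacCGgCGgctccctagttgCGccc
WNT5B: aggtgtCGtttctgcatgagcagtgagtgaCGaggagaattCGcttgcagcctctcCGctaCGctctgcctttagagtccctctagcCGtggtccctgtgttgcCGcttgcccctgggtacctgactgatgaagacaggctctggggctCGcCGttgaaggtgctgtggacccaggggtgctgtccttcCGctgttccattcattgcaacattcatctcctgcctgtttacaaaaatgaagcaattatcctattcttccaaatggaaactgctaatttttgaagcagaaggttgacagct
TCF7: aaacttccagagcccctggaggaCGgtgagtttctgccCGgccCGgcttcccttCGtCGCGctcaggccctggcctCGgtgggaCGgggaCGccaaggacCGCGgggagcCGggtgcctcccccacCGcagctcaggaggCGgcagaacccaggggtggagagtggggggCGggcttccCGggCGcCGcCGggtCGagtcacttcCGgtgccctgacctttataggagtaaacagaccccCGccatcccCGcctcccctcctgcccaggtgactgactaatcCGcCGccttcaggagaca
FZD4: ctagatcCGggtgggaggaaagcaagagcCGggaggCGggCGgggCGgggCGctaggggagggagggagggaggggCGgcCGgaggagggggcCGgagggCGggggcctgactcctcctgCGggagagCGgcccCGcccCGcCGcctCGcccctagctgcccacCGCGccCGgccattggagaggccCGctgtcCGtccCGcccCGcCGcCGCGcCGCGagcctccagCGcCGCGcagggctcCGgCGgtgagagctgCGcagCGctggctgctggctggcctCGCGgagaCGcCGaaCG
The WNT5A window held 21 CpGs at 56.3% GC and the WNT5B window 10 CpGs at 51.7% GC, both from downregulated ligands. The windows of the upregulated TCF7 and FZD4 held 25 CpGs at 69.7% GC and 40 CpGs at 79.7% GC. Over all listed starts, the median was 28 CpGs for upregulated members (16 starts of 14 genes) and 15.5 for downregulated members (4 starts of 2 genes), against 25 for the 15259 starts of tested genes. The range among upregulated members was 3 to 53 CpGs and so covered the 7 to 22 of the downregulated members. The core of the TCF/LEF recognition sequence, CTTTGA, or its reverse complement TCAAAG occurred at 1 of 59 member starts (1.69%), that of DKK1, and at 8.81% of the starts of tested genes. A match describes letters in a window, and no match says only that these letters are not in it.

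The 15 receptors moved in both directions. Frizzleds are the membrane receptors that bind the ligand. Of 10 Frizzled genes, 9 were tested, 5 were upregulated and 1, FZD2, was downregulated. Over all genes tested, 20.2% were upregulated and 8.18% were downregulated. FZD9 passed the filter only through the mocetinostat samples, so its direction is not independent of the filter. Of the 8 Frizzleds that passed in the DMSO samples, 4 were upregulated and 1 was downregulated. Among all such genes, 11.7% were upregulated and 9.46% were downregulated. FZD2 (GRCh38, chr17:44557484-44561262, plus strand) was at 66.9, 66.9 and 58.2 CPM with DMSO and at 31.5, 20.9 and 23.0 CPM with mocetinostat. All treated samples lay below all controls, and the decrease was 2.42-fold (log2 -1.27 ± 0.15, adjusted p = 5.16e-12); the call was lost with scaling to GAPDH (log2 -0.73). FZD6, a receptor known from hair and nail patterning that made up the largest share of Frizzled RNA, was 73.8 ± 4.45 CPM with DMSO and 70.7 ± 3.49 CPM with mocetinostat and did not pass the test (adjusted p = 0.702).

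The Frizzleds that rose started from lower levels. FZD1 was at 4.40, 5.58 and 5.70 CPM with DMSO and at 22.4, 32.6 and 18.9 CPM with mocetinostat, and FZD1 was upregulated 4.65-fold (log2 2.22 ± 0.25, adjusted p = 2.45e-12). FZD8 was at 2.51, 2.07 and 4.53 CPM with DMSO and at 13.6, 16.6 and 11.9 CPM with mocetinostat, an increase of 4.51-fold (log2 2.17 ± 0.33, adjusted p = 2.08e-08). Neither gene overlapped between groups. FZD4, which also serves as receptor for Norrin in retinal vessels, was at 16.6, 14.7 and 11.8 CPM with DMSO and at 50.4, 40.6 and 62.1 CPM with mocetinostat. It was upregulated 3.54-fold (log2 1.83 ± 0.17, adjusted p = 1.54e-15), with 18.9% of its exon bases shared with PRSS23 on the opposite strand.

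Calls for FZD9 and FZD3 were closer to the thresholds. FZD9 was at 1.88, 1.24 and 1.32 CPM with DMSO and at 5.70, 4.30 and 3.29 CPM with mocetinostat (log2 1.58 ± 0.47, adjusted p = 0.0027), all treated samples being higher. Its call was lost without mocetinostat replicate 1 (adjusted p = 0.09) and with DESeq2 (adjusted p = 0.0507). FZD3, a receptor of the polarity branch in axon guidance, was at 15.4, 15.7 and 15.1 CPM with DMSO and at 34.8, 27.7 and 30.8 CPM with mocetinostat. The difference was clear of the replicate spread and only just past the fold threshold (log2 1.04 ± 0.18, adjusted p = 6.55e-07; 0.92 without mocetinostat replicate 1, 0.79 without the low-count filter and 1.00 with DESeq2, each below the threshold). FZD7 was higher by 0.90 (adjusted p = 1.1e-06; 1.4 and past the threshold when thinned) and FZD5 by 0.30 (adjusted p = 0.208), neither called, and FZD10 had 2 reads in all DMSO libraries together and none with mocetinostat.

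The mix of Frizzled RNA also differed between the groups. FZD2 made up 35.6% ± 2.6 of Frizzled RNA per kb with DMSO and 12.2% ± 2.00 with mocetinostat. FZD4 went from 4.08% ± 0.651 to 12.8% ± 2.46, FZD7 from 10.6% ± 1.71 to 17.1% ± 0.381, and FZD6 from 38.1% ± 2.36 to 32.2% ± 0.399. The sum over the 10 genes was 47.6 ± 0.362 CPM per kb with DMSO and 54.0 ± 3.30 with mocetinostat, a ratio of 1.13 (1.64 when scaled to GAPDH).

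The coreceptors of the canonical branch were slightly higher after treatment. LRP5 was at 61.9, 79.1 and 77.8 CPM with DMSO and at 98.5, 103.3 and 92.5 CPM with mocetinostat, and LRP6 was at 125.5, 114.2 and 120.6 CPM with DMSO and at 165.0, 172.8 and 175.6 CPM with mocetinostat. Both genes were higher in every treated sample than in any control, by 1.35-fold for LRP5 (log2 0.43 ± 0.11, adjusted p = 0.000671) and 1.42-fold for LRP6 (log2 0.50 ± 0.09, adjusted p = 2.89e-06), below the fold threshold. ROR2, a tyrosine kinase-like receptor for WNT5A that is required for cartilage and limb development, was at 17.4, 23.1 and 23.0 CPM with DMSO and at 43.7, 38.1 and 45.6 CPM with mocetinostat. ROR2 was called with log2 1.04 ± 0.16 (adjusted p = 6.27e-08), and the value fell under the fold threshold in 4 alternatives (0.88 without DMSO replicate 1, 0.98 without mocetinostat replicate 3, 0.99 with DESeq2, 0.79 without the filter). Its relative ROR1 was higher by 0.55 (adjusted p = 0.00725), and RYK was lower by 0.29 (adjusted p = 0.0155) with overlapping groups and higher by 0.25 when scaled to GAPDH, neither of them called.

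Calls among the secreted antagonists were all upward. Of 11 genes, 6 were tested and 4 were upregulated, where 20.2% of all genes tested were. SFRP2 and NOTUM came into the test by the mocetinostat samples alone, so their direction is not independent of the filter. Of the 4 antagonists that reached the filter level in the DMSO samples, SFRP1 and FRZB were upregulated. Of all such genes, 11.7% were. SFRP1, a Frizzled-related decoy that binds ligands outside the cell, was at 77.3, 85.7 and 86.1 CPM with DMSO and at 289.1, 271.1 and 283.7 CPM with mocetinostat. Replicates were tight in both groups, and SFRP1 was upregulated 3.41-fold (log2 1.77 ± 0.09, adjusted p = 3.9e-28). FRZB, the antagonist named above for cartilage, was at 4.04, 4.55 and 5.56 CPM with DMSO and at 20.3, 24 and 25.1 CPM with mocetinostat, again without overlap. The increase was 4.87-fold (log2 2.28 ± 0.25, adjusted p = 1.32e-12; 3.50 when all libraries were thinned to the smallest).

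SFRP2 and NOTUM were all but unread with DMSO. SFRP2, another Frizzled-related decoy, had 0, 0 and 1 reads with DMSO and 36, 10 and 10 reads with mocetinostat, so that the ratio of counts per depth was 139.8 with an exact 95% counting interval of 24.1 to 5618.4. NOTUM, an extracellular esterase that removes the lipid from WNT ligands and is itself a known WNT target, had 0, 0 and 1 reads with DMSO and 28, 12 and 10 with mocetinostat, a ratio of 124.8 (21.4 to 5026.9). Both were detected in every treated library. Their fitted log2 fold changes were 6.46 ± 0.79 for SFRP2 (adjusted p = 4.75e-11) and 6.36 ± 0.81 for NOTUM (adjusted p = 1.62e-10), and since a single read sets the control level they ranged from 5.67 to 7.88 and from 5.58 to 7.79 when each replicate was left out in turn, the lowest values without DMSO replicate 1 and the highest without DMSO replicate 3.

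The DKK family includes blockers of LRP5/LRP6. Of its 4 genes, DKK1 and DKK3 were tested and not called, and DKK2 and DKK4 were too low to be tested. DKK1 was the antagonist with the most RNA per kb in the controls and was 116.1 ± 11.3 CPM with DMSO and 131.7 ± 6.15 CPM with mocetinostat (adjusted p = 0.12). DKK3, a divergent family member, was higher by 0.79 on the log2 scale (adjusted p = 7.44e-12) in a gene model that shares 47.5% of its exon bases with USP47 on the opposite strand. The summed antagonist level was 82.3 ± 3.32 CPM per kb with DMSO and 152.4 ± 1.26 with mocetinostat, a 1.85-fold difference (2.67-fold when scaled to GAPDH). SFRP1 supplied 21.4% ± 1.86 of it with DMSO and 39.0% ± 1.24 with mocetinostat, level with the 38.9% ± 1.72 left to DKK1, which had held 63.4% ± 4.01 in the controls.

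R-spondins and their LGR receptors potentiate WNT signals by removing the ligases RNF43 and ZNRF3, which clear Frizzleds from the membrane. Only 2 of these 9 genes were tested. LGR4, the widely expressed R-spondin receptor, was at 13.4, 12.4 and 11.1 CPM with DMSO and at 40.7, 33.8 and 49.8 CPM with mocetinostat. All treated samples exceeded all controls, and LGR4 was upregulated 3.37-fold (log2 1.75 ± 0.18, adjusted p = 9.38e-14). ZNRF3 was 29.6 ± 2.05 CPM with DMSO and 24 ± 0.653 CPM with mocetinostat and did not pass the test (adjusted p = 0.111).

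Of the 10 cytoplasmic effectors, 3 were upregulated, AXIN2, NKD1 and NKD2, all known as feedback inhibitors of the pathway (30.0% of the 10, against 20.2% of all genes tested). All 3 passed the filter only through the mocetinostat samples, and the 7 effectors that passed in the DMSO samples had a median log2 fold change of -0.22 and held no call. Of those 7, 4 were lower at an adjusted p below 0.05. CTNNB1, which encodes β-catenin, was at 442.5, 397.7 and 367.0 CPM with DMSO and at 352.5, 348.6 and 333.0 CPM with mocetinostat. The groups were apart by a small margin, with CTNNB1 lower by 0.22 on the log2 scale (SE 0.08; adjusted p = 0.00992), whereas scaling to GAPDH put it higher by 0.31. The scaffold AXIN1 was lower by 0.50 (adjusted p = 0.000499) but higher by 0.03 with GAPDH scaling, and APC (adjusted p = 0.154) and the kinase GSK3B (adjusted p = 0.285) did not pass the test. Of the Dishevelled genes, DVL3 was lower by 0.55 (adjusted p = 4.7e-06; -0.02 when scaled to GAPDH), DVL2 was lower by 0.33 (adjusted p = 0.0301; higher by 0.21 when scaled to GAPDH) and DVL1 did not pass (adjusted p = 0.51).

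NKD1 and NKD2 encode Naked cuticle proteins, which bind Dishevelled and dampen WNT signals. NKD1 (GRCh38, chr16:50548396-50649249, plus strand) was at 1.35, 1.65 and 1.61 CPM with DMSO and at 67.7, 66.4 and 71.1 CPM with mocetinostat. NKD1 had the smallest adjusted p of the 44 tested members and was upregulated 45.1-fold (log2 5.49 ± 0.22, adjusted p = 1.7e-34; 4.19 when thinned). NKD2 (GRCh38, chr5:1008802-1038943, plus strand) had 1, 0 and 2 reads with DMSO and 109, 45 and 68 reads with mocetinostat. It thus went from 3 reads in all to at least 45 in every treated library, a ratio of counts per depth of 184.7 (exact 95% counting interval, 62.4 to 902.5; fitted log2 7.35 ± 0.45, or 8.15 without DMSO replicate 3 and 8.31 when thinned; adjusted p = 6.81e-24).

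AXIN2, a scaffold of the destruction complex and a widely used readout of canonical signaling, lies at chr17:65528563-65561648 on the minus strand (GRCh38). Its level was 2.51, 1.24 and 0.585 CPM with DMSO and 8.65, 7.38 and 14.0 CPM with mocetinostat. DMSO replicate 1, with 28 reads, was nearer to the treated samples than the other controls, with 6 and 4 reads, but the groups did not overlap. AXIN2 was upregulated 6.25-fold (log2 2.64 ± 0.41, adjusted p = 5.87e-08), or by a log2 of 3.47 without DMSO replicate 1 and 1.98 when thinned. The annotation gives 25.3% of its exon bases to a second gene on the same strand (ENSG00000266076), and how reads in the shared part were assigned is not given in the sources used here.

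All 4 TCF/LEF factors, which bind DNA and recruit β-catenin, were higher in each treated sample than in any control. The same held for 33.7% of all genes tested. LEF1 passed the filter only through the mocetinostat samples, and of the 3 factors that passed in the DMSO samples 1, TCF7, was upregulated. Of all genes that passed in the DMSO samples, 11.7% were upregulated. LEF1 (GRCh38, chr4:108047545-108168956, minus strand) was at 0.449, 0 and 0.292 CPM with DMSO and at 12.2, 22.1 and 14.4 CPM with mocetinostat. From 5, 0 and 2 reads in the controls it reached 62, 36 and 35 reads in the treated libraries and was upregulated 47.9-fold (log2 5.58 ± 0.48, adjusted p = 8.66e-17; 6.26 without DMSO replicate 1). TCF7 was at 15.0, 12.4 and 20.6 CPM with DMSO and at 54.5, 61.5 and 53.0 CPM with mocetinostat. The lowest treated sample was well above the highest control, and TCF7 was upregulated 3.46-fold (log2 1.79 ± 0.16, adjusted p = 7.42e-16).

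The other TCF genes stayed below the fold threshold. TCF7L1, which acts mostly as a repressor of WNT targets, was at 11.2, 8.47 and 14.5 CPM with DMSO and at 16.3, 25.8 and 24.7 CPM with mocetinostat (log2 0.88 ± 0.22, adjusted p = 0.000378), and it passed the fold threshold without DMSO replicate 3 (1.05), without mocetinostat replicate 1 (1.12) and with GAPDH scaling (1.42). The highest control and the lowest treated sample lay close together. TCF7L2 was at 36.9, 39.5 and 39.9 CPM with DMSO and at 57.8, 51.6 and 51.8 CPM with mocetinostat (log2 0.49 ± 0.13, adjusted p = 0.000922). Per kb, TCF7L2 supplied 58.3% ± 6.38 of TCF/LEF RNA with DMSO and 37.2% ± 5.42 with mocetinostat, TCF7 15.7% ± 2.23 and 25.8% ± 1.15, and LEF1 0.452% ± 0.438 and 13.8% ± 3.17. The summed level of the 4 genes was 9.95 ± 1.19 and 21.6 ± 1.92 CPM per kb, a ratio of 2.17 (3.12 when scaled to GAPDH).

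**Figure D3:**
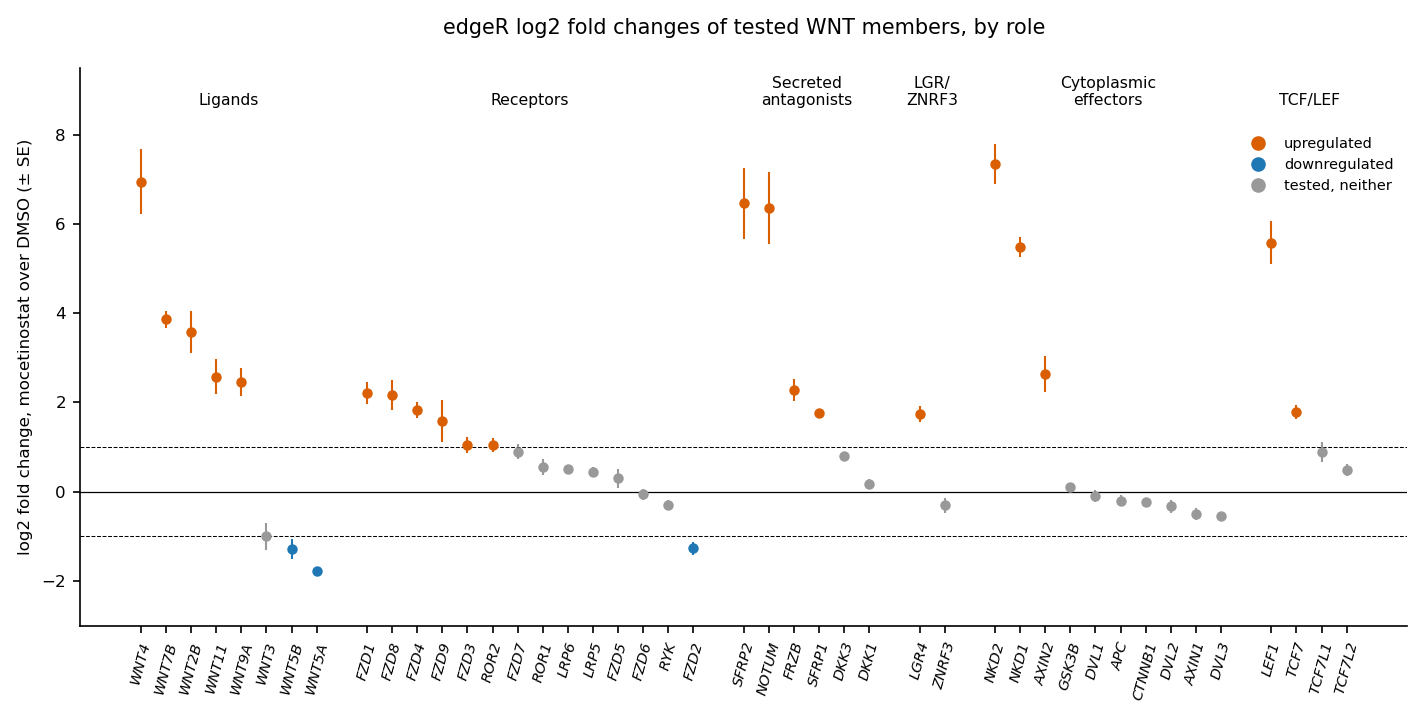
edgeR log2 fold change of mocetinostat over DMSO (y axis, points with SE bars) for the 44 tested members, grouped by role on the x axis, with upregulated members in orange, downregulated members in blue and the others in gray; dashed lines mark the fold threshold of 1 in both directions. The 3 downregulated members are WNT5A, WNT5B and FZD2, and the points highest on the scale are NKD2 at 7.35, WNT4 at 6.95, SFRP2 at 6.46 and NOTUM at 6.36.

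The 24 members without a test were read too rarely, with at most 11 counts in any DMSO sample and 19 in any mocetinostat sample. Mean CPM was higher with mocetinostat for 22 of them and lower for 2 (WNT8A and FZD10), and the groups did not overlap for 10. The same counts were not computed over all untested genes, and neither were those of the alternative calls below. They therefore describe these members and set no contrast with other genes as low. All 4 R-spondins were in this set. RSPO1, a secreted potentiator of WNT signals, had 0, 0 and 2 reads with DMSO and 8, 10 and 10 with mocetinostat, a ratio of counts per depth of 34.9 (exact 95% counting interval, 8.81 to 302.7). LGR5, an R-spondin receptor best known as a stem cell marker, had 0, 1 and 0 reads and 9, 3 and 3 reads (ratio 37.4; 5.76 to 1576.2). LGR6, absent from the controls, had 19, 0 and 8 reads with mocetinostat and was thus at least 22.5-fold higher against a floor of 3 counts over the DMSO group, though 1 treated library lacked it. Against the same floor WNT3A, the prototype canonical ligand, was at least 6.66-fold higher and RNF43 at least 4.99-fold. The RNF43 value rests on 6 treated reads in a gene model that shares 68.4% of its exon bases with ENSG00000285897 on the same strand. When the filter was omitted, edgeR called 9 of the 24 upregulated (RSPO1, LGR6, WNT3A, SFRP4, WNT16, RSPO2, SFRP5, LGR5 and RNF43), and DESeq2 called 8, the same genes without LGR6.

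Beyond the members, 81 other genes of the pathway were read by lists of their own. Of these, 70 were tested, 18 were upregulated and 6 were downregulated, and their median log2 fold change was 0.15. These shares were 25.7% and 8.57%, against 20.2% and 8.18% of all genes tested. Of the 65 that passed the filter in the DMSO samples, 14 were upregulated (21.5%, against 11.7% of all such genes). In the same set 6 were downregulated (9.23%, against 9.46%). Among 16 genes of WNT secretion and coreceptor regulation, 6 of 11 tested were upregulated (54.5%). DRAXIN, which binds LRP6 and was first known in axon guidance, averaged 12.8 CPM with DMSO and 84.5 CPM with mocetinostat (log2 2.73 ± 0.16; 3.54 when thinned; adjusted p = 1.45e-25). KREMEN1, a receptor for DKK proteins, averaged 15.1 and 72.1 CPM (log2 2.30 ± 0.15, adjusted p = 5.38e-22), and ADGRA2, a cofactor for WNT7 ligands, averaged 40.9 and 93.1 CPM (log2 1.17 ± 0.12, adjusted p = 3.29e-13; 0.92 without the filter). WLS, which carries ligands to the cell surface, was higher by 0.63 (adjusted p = 2.89e-07) without a call, and PORCN, which adds their lipid, did not pass the test (adjusted p = 0.775).

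Of 24 genes of β-catenin destruction and turnover, 22 were tested, 4 were upregulated and 2 were downregulated. The shares of 18.2% and 9.09% were about those of all genes tested, 20.2% and 8.18%. APC2, a paralog of APC, averaged 6.57 CPM with DMSO and 62.1 CPM with mocetinostat (log2 3.19 ± 0.19, adjusted p = 4.92e-25). CCDC88C, a Dishevelled-binding protein, was upregulated by a log2 of 1.65 and CTNNBIP1, which blocks β-catenin from TCFs, by 1.17; the CTNNBIP1 call was lost without DMSO replicate 1 (0.96), without mocetinostat replicate 2 (1.0) and without the filter (0.93). AMER1, a scaffold for the destruction complex, was downregulated (log2 -1.35 ± 0.24, adjusted p = 7.68e-07), as was the ligase SIAH1 (log2 -1.02 ± 0.22, adjusted p = 5.34e-05). When thinned, AMER1 lost its call (adjusted p = 0.0599), and so did SIAH1 (log2 -0.36), which also lost it without DMSO replicate 1 (-0.88) and without mocetinostat replicate 2 (-0.93).

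Of 17 nuclear cofactors, all were tested, 2 were upregulated (11.8%) and 3 were downregulated (17.6%). All 17 passed the filter in the DMSO samples, and 11.7% and 9.46% of all such genes were called. The corepressors TLE1 and TLE2 were upregulated with log2 values of 1.35 ± 0.13 (adjusted p = 1.38e-15) and 1.53 ± 0.22 (adjusted p = 5.55e-09). The acetyltransferase CREBBP, a coactivator of β-catenin, averaged 354.2 CPM with DMSO and 134.5 CPM with mocetinostat (log2 -1.40 ± 0.09, adjusted p = 9.96e-24). Its paralog EP300 averaged 227.4 and 114.5 CPM (log2 -1.0 ± 0.10, adjusted p = 5.49e-15) and stood so near the fold threshold that 7 of 13 alternatives ended the call, among them leaving out DMSO replicate 2 (-0.98), mocetinostat replicate 1 (-0.97) or mocetinostat replicate 3 (-0.96). PYGO1, which binds β-catenin through BCL9, was downregulated by a log2 of -1.14 (adjusted p = 6.02e-08), or -0.63 without a call when thinned.

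The polarity and calcium list held 24 genes, of which 20 were tested, 6 were upregulated (30.0%) and 1 was downregulated (5.0%). Over all genes tested these shares were 20.2% and 8.18%. DAAM2 and CAMK2B passed the filter only through the mocetinostat samples. Of the 18 that passed in the DMSO samples, 4 were upregulated (22.2%, against 11.7% of all such genes) and 1 was downregulated (5.56%, against 9.46%). CELSR2, a cadherin of the planar polarity pathway, averaged 27.6 CPM with DMSO and 86.1 CPM with mocetinostat (log2 1.64 ± 0.13, adjusted p = 1.85e-18). DAAM2, a formin that binds Dishevelled, averaged 2.72 and 30.0 CPM (log2 3.28 ± 0.27; 4.62 when thinned; adjusted p = 1.67e-17), and the calcium-dependent kinase CAMK2B averaged 1.20 and 11.6 CPM (log2 3.41 ± 0.41; 2.73 when thinned; adjusted p = 2.92e-11). NFATC2, a transcription factor of the calcium branch, was downregulated from 70.7 to 25.8 CPM (log2 -1.48 ± 0.14, adjusted p = 1.46e-14). Each of the 6 downregulated pathway genes lost its call with GAPDH scaling. Among the genes named from these lists, ADGRA2 shares 23.0% of its exon bases with BRF2, SIAH1 26.8% with LONP2, DAAM2 24.4% with DAAM2-AS1 and CAMK2B 20% with YKT6, each on the opposite strand.

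A list of 36 genes known as WNT/β-catenin targets in other systems was read beside the members. Of these, 26 were tested, 14 were upregulated and 3 were downregulated, and the median of their log2 values was 1.04. The shares were 53.8% and 11.5%, against 20.2% and 8.18% of all genes tested. Of the 26, 6 passed the filter only through the mocetinostat samples, CLDN1 among them. Of the 20 that passed in the DMSO samples, 8 were upregulated (40%, against 11.7% of all such genes) and 3 were downregulated (15.0%, against 9.46%) and the median of their log2 values was 0.57. The tight-junction gene CLDN1 averaged 0.809 CPM with DMSO and 34.0 CPM with mocetinostat (log2 5.42 ± 0.30; 4.82 when thinned; adjusted p = 4.45e-26). The matricellular gene CCN1 averaged 382.2 and 1278.2 CPM (log2 1.74 ± 0.07, adjusted p = 1.25e-34), and the receptor EPHB3 averaged 6.81 and 47.6 CPM (log2 2.84 ± 0.20, adjusted p = 1.79e-21). The downregulated genes were GREM1, a BMP antagonist (log2 -1.08 ± 0.07, adjusted p = 8.99e-24), BIRC5, which encodes survivin (-1.33 ± 0.10; adjusted p = 2.38e-19), and the AP-1 gene FOSL1 (-1.48 ± 0.11; adjusted p = 4.6e-19), all below the fold threshold with GAPDH scaling. CCND1 was higher by 0.51 (adjusted p = 6.78e-08) and MYC lower by 0.26 (adjusted p = 0.011; higher by 0.27 with GAPDH scaling), neither called, and SP5, a direct target in many cell types, was too low to be tested with 6 reads in the 3 DMSO libraries and 22 in the 3 mocetinostat libraries. Many of these genes also respond to other pathways, and what set their levels was not tested.

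The scale of all these values rests on the assumption that the typical gene did not change. GAPDH, often used as a reference, was lower with mocetinostat (3015.2 ± 89.1 CPM with DMSO and 2094.1 ± 75.7 CPM with mocetinostat), and scaling to it moved the median gene by 0.54 on the log2 scale. The plot of member fold changes under all alternatives shows this shift as the orange ticks. Under it 27 members were upregulated, the further ones being FZD7, TCF7L1, DKK3, ROR1, LRP6 and TCF7L2, and WNT5A alone was downregulated (log2 -1.24), so that 96.4% of the calls among members were upward instead of 87.5%, and among all genes 94.0% instead of 71.2%.

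**Figure D4:**
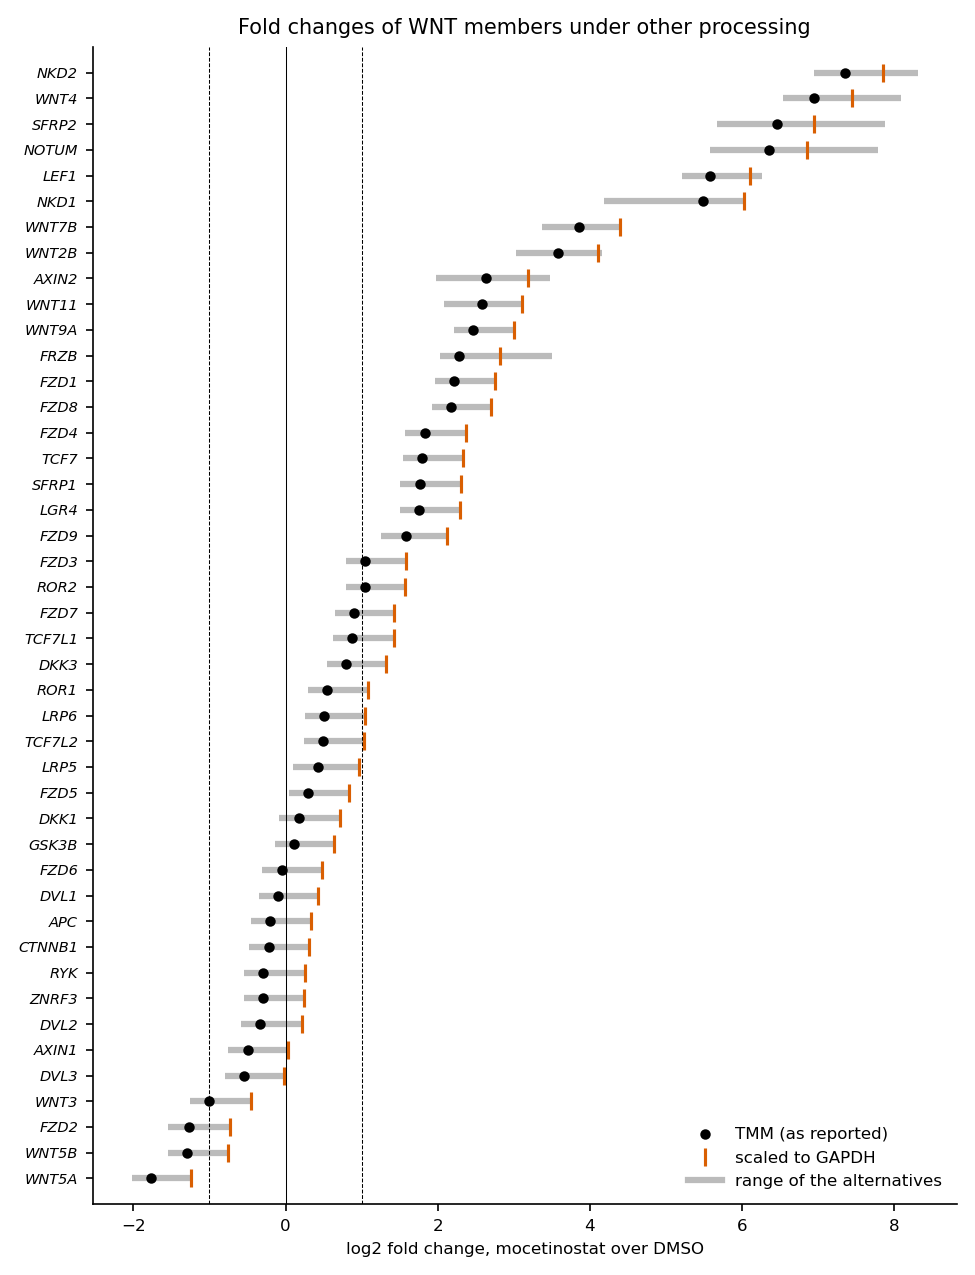
log2 fold change of mocetinostat over DMSO (x axis) for each of the 44 tested members (y axis), with the TMM-scaled value as a black point, the value scaled to GAPDH as an orange tick and the range over 13 alternative settings as a gray bar; dashed lines mark 1 in both directions. All 24 called members lie on the same side of 0 over their whole bar, and 13 members near the middle of the plot do not pass the fold threshold in any of the settings.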

How the data were processed

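RNA-Seq had been performed on 6 samples of TC28a2 cells, 3 per group, and the labels give treatment and replicate number, while dose and time come from the study's methods. The authors deposited raw read counts per gene: single reads were trimmed, depleted of ribosomal RNA reads, aligned to GRCh38 with STAR 2.6.1d and assigned to genes with featureCounts 1.6.4. The strand setting and the handling of reads that map to several genes are not given in the sources used here. Totals were 1619344 to 11031132 counts per sample, and replicates differed by more than sampling noise in all 6 within-group pairs, so each was counted as a sample.

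The whole table was fitted in edgeR 4.0.16 (R 4.3.3) with TMM factors, treatment as the only term and a minimum count of 10 in the low-count filter (2.01 CPM), which kept 13966 of 60623 genes; the procedure was first tested on simulated data. SEs were taken as the absolute log2 fold change over the square root of the F statistic, CPM per kb used the union of exons in GENCODE 44 (99.5% of gene identifiers matched, and all members), and counting intervals are exact at 95%. Alternatives were RLE factors, library size alone, scaling to GAPDH, no filter, DESeq2 1.42.0, thinning to 1619344 counts (seed 1), the replicate number as a block, and leaving out each sample. Every called member and CTNNB1, TCF7L1, TCF7L2, LRP5 and LRP6 are given per sample; from the other lists, up to 3 called genes per direction by p are named, plus PORCN, WLS, SP5, CCND1 and MYC. Promoters came from RefSeq (GRCh38.p14) for 49 of 68 members. Members and lists were chosen with earlier results of these data known. Each p-value sets the difference between the groups against the spread estimated between these samples.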

Additional observations from a re-analysis of the deposited data

How the results depend on the processing

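Of the 24 called members, all kept their direction in each of the 13 alternatives in which they could be fitted (WNT4, WNT2B, SFRP2, FZD9 and NOTUM did not reach the test when thinned), 19 kept their call in all of those, and FZD9, FZD3, ROR2, WNT5B and FZD2 lost it in at least 1, as given beside their values. Leaving out each replicate in turn gave 21 to 25 upregulated and 2 to 4 downregulated members. With RLE factors, library size alone or the replicate number as a block, the counts stayed at 21 and 3; no filter gave 28 and 4, DESeq2 26 and 4, and thinning 17 and 2. Deviations of same-numbered samples from their group means correlated at 0.0131, 0.0166 and -0.0217, so no pairing by replicate number was detected. Such low correlations do not show that the samples were unpaired by experiment.

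Scaling to GAPDH left 1 member downregulated. With that scaling edgeR called 0 other pathway genes and 0 target genes downregulated, with 8 and 3 of them lower at an unadjusted p under 0.05. DESeq2, with its own scaling and the adjusted p and fold thresholds, called 7 and 3 downregulated. Downregulated other pathway genes numbered 10 without the filter and 3 when thinned. Over all genes, calls were 4425 upward and 284 downward with GAPDH scaling, and 2120 downward without the filter, where 60.2% of calls were upward and the median gene moved by -0.25 on the log2 scale. Several genes without a call changed sign. With GAPDH scaling the log2 fold change was 0.43 for DVL1, 0.31 for CTNNB1, 0.25 for RYK, 0.34 for APC, 0.48 for FZD6, 0.03 for AXIN1, 0.21 for DVL2, 0.24 for ZNRF3, 0.44 for PORCN and 0.27 for MYC, following from the scaling itself. Without the filter it was -0.14 for GSK3B and -0.08 for DKK1, and when thinned 0.29 for FZD6 and 0.13 for ZNRF3. PORCN ranged from -0.75 without mocetinostat replicate 1 to 0.08 without mocetinostat replicate 2. For the filter, the thinning and PORCN the cause was not tested.

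Depth limited the 24 untested members and the size of the changes of WNT4, SFRP2, NOTUM and NKD2, whose control level rests on 1 to 3 reads in all; intervals and floors cover counting error only, since reads had no molecular identifiers that the sources used here describe.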
